A study of Mus musculus with 4 samples.

Results

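The keratin genes were examined on 4 microarrays of newborn mouse head tissue. A gene was taken as a keratin where its annotated symbol was Krt followed by a number and at most 1 letter, only probe sets assigned to a single gene were used, and where a gene had several probe sets the one with the highest mean over the 4 arrays stood for it. This gave 48 keratin genes, measured by 61 probe sets, of 18193 genes in all. The keratin-associated proteins of hair, whose symbols start with Krtap, were not members and are described only beside them. FoxO6 is a forkhead transcription factor, and the mutant allele had its coding region replaced by a LacZ-neo cassette on a C57BL/6 background. The 4 groups, each with 1 array, were FoxO6-/- mandible and maxilla, WT mandible and maxilla, FoxO6-/- brain and WT brain. The labels gave postnatal day 0 for every sample, whereas the results of the study placed the mandible and maxilla array tissue late in embryonic life. According to the methods of the study, each mandible and maxilla array held pooled RNA of 4 animals. The methods also mention heterozygous animals among the mutants. No probe set carried the name Foxo6, so the genotype of the arrays was not checked against the deleted gene.

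Keratins are the intermediate filament proteins of epithelial cells, and a filament forms only from a type I (acidic) keratin paired with a type II (neutral to basic) keratin. Which pair a cell makes depends on the kind of epithelium and on how far the cell has differentiated: single-layered epithelia make Krt8 and Krt18, the dividing basal cells of a stratified epithelium make Krt5 and Krt14, cells that leave the basal layer of the epidermis switch to Krt1 and Krt10, and the non-keratinized lining of the mouth makes Krt4 and Krt13. Hair follicles use sets of their own, one for the hard hair shaft and another for the inner root sheath that moulds it. The members were grouped on this basis into 6 simple, 4 basal, 7 suprabasal, 6 oral and 22 hair keratins, with 3 keratins that belong to none of these groups.

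Values are signals of the MAS5 algorithm, a linear brightness scaled so that the mean over all probe sets, trimmed at both ends, was 500 on every array. A gene was given a genotype ratio in a tissue only where the mean signal of its probe set over both arrays of that tissue reached 101, the median of all signals, which is called the floor here. Ratios are FoxO6-/- over WT on the log2 scale, and signals of different genes were not set against each other. With 1 array in a group no genotype ratio within a tissue had a replicate check, so no test and no error can be given for these. As a guide to the spread between probe sets, log2 ratios from different probe sets of a gene differed with an SD of 0.41. This was in mandible and maxilla, over 4927 genes. It compares readings of the same arrays and does not measure variation between animals or between arrays.

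The tissue labels were checked with lists of marker genes. The summed signal of 12 nerve and brain markers was 87002 in FoxO6-/- and 68486 in WT brain, against 4720 in FoxO6-/- and 7409 in WT mandible and maxilla. Both arrays labelled brain also carried cartilage markers, with a summed signal of 64850 in FoxO6-/- and 36215 in WT brain. In mandible and maxilla this sum was 37988 in FoxO6-/- and 59751 in WT. Skeletal muscle markers summed to 72038 in FoxO6-/- and 88809 in WT brain, beside 175686 in FoxO6-/- and 161613 in WT mandible and maxilla. Krt10, of the epidermis, had 14898 in FoxO6-/- and 11231 in WT brain. The ratio of 3′ to 5′ signal of Actb, a measure of RNA integrity, reached 3.37 in FoxO6-/- mandible and maxilla, with 2.21 to 2.23 in the other groups. The methods of the study report high RNA integrity numbers for the samples. The part of RNA integrity and of unequal tissue content in the results below was not tested. In whole tissue, a larger number of cells of a type and more RNA in each cell cannot be told apart.

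Of the 48 keratins, 44 reached the floor in mandible and maxilla. Their signal was higher in FoxO6-/- than in WT for 38 and lower for 6, with a median log2 ratio of 0.39, against -0.01 over all 12186 genes above the floor. Over all these genes 48.7% were higher in FoxO6-/-, or 66.0% with the arrays centred on their medians, where 90.9% of the keratins were. Only 4 keratins, Krt34, Krt36, Krt84 and Krt86, were at least 2-fold higher, where 0.591% of all genes were, and none was at least 2-fold lower, where 1.69% of all genes were. All 4 were grouped here as hair shaft keratins. Which structure of the dissected tissue their signals came from was not tested. Krt20, a keratin of gut and urothelium, and Krt82, Krt88 and Krt222 stayed below the floor in both tissues and were given no ratio.

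**Figure D1:**
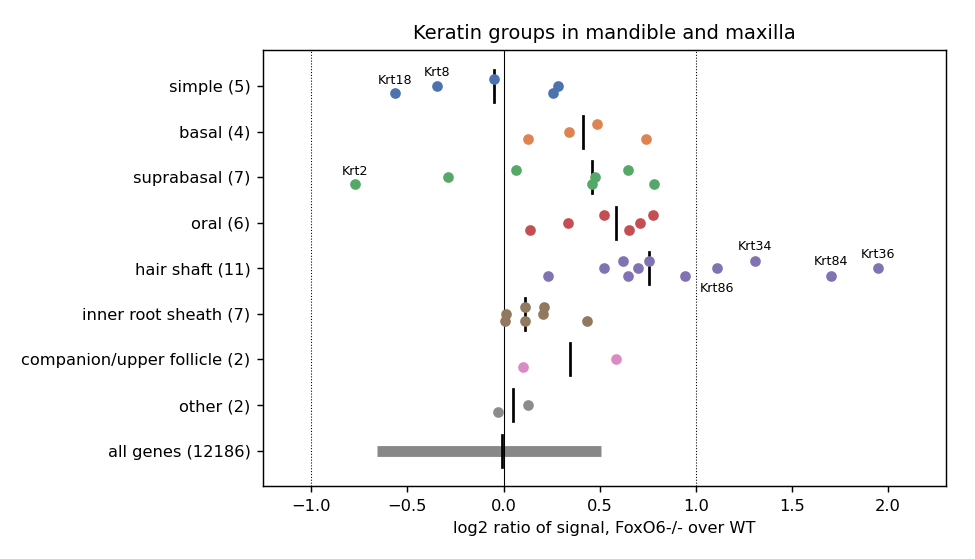
Log2 ratio of FoxO6-/- over WT signal in mandible and maxilla (horizontal axis) for each keratin above the floor, 1 point per gene, by keratin group, with a tick at the median of each group and dotted lines at 2-fold; the grey band spans the 5th to the 95th percentile of all genes. The hair shaft keratins reach 1.95 and hold all 4 points beyond 2-fold, whereas the inner root sheath keratins lie between 0.01 and 0.43.

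The hair keratins divide into those of the shaft, of the inner root sheath, and of the companion layer and upper follicle; this division was made after values had been seen. Shaft keratins are rich in cysteine and are cross-linked with the keratin-associated proteins into the hard fibre of the hair. All 11 shaft keratins above the floor were higher in FoxO6-/- than in WT mandible and maxilla, with log2 ratios between 0.23 and 1.95 and a median of 0.76.

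Krt36, a type I keratin of the shaft group, had 1180 in FoxO6-/- and 306 in WT mandible and maxilla. Its ratio, 3.86-fold, was the largest among the keratins. In brain its signal was 12.3 in FoxO6-/- and 47.5 in WT, both below the floor. Its only probe set is of the kind that reads several transcripts of 1 gene. Krt84, a type II keratin of the shaft cuticle that is also made on the tongue, had 865 in FoxO6-/- and 266 in WT mandible and maxilla, a 3.26-fold difference. Krt34, of the shaft cortex, had 1887 in FoxO6-/- and 762 in WT, which is 2.48-fold. For Krt86, a type II cortex keratin, the signals were 952 in FoxO6-/- and 442 in WT, which is 2.15-fold. On the WT mandible and maxilla array the signals of these 4 genes were 2.64 to 7.56 times the floor, so none of the ratios was set by a WT signal below it.

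The remaining 7 shaft keratins differed by less than 2-fold. Krt81, a cortex keratin, came closest with 1447 in FoxO6-/- and 753 in WT mandible and maxilla (log2 ratio 0.94), and it was the only shaft keratin above the floor in brain, where its signal was 284 in FoxO6-/- and 147 in WT (0.95). Krt33a had 1332 in FoxO6-/- and 788 in WT (0.76), and its neighbour Krt33b had 785 in FoxO6-/- and 510 in WT (0.62). Krt35, an early keratin of the hair matrix and cuticle, had 586 in FoxO6-/- and 361 in WT (0.70). These ratios, and those of Krt83 and Krt31 below, were larger than the spread of 0.41 between probe sets, which is no test of a genotype ratio. Each shaft keratin was read by a single probe set, so none had a second reading on the array. Krt83 had 471 in FoxO6-/- and 301 in WT (0.65), and Krt31 had 635 in FoxO6-/- and 443 in WT (0.52). The smallest ratio was that of Krt32, a cuticle keratin, with 369 in FoxO6-/- and 315 in WT (0.23). Krt81, Krt83 and Krt86 are closely similar in sequence, as are Krt33a and Krt33b, and Krt31 and Krt34 are close relatives, so that part of the signal may be shared between their probe sets.

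The promoters of the shaft keratins are shown because these genes were higher together. RefSeq entries on the build GRCm38.p6 were given for 32 of the 48 keratins, among them 7 shaft keratins, and the 250 bases before the start of each gene were searched. Printed are all 4 shaft keratins holding the letters CTTTGAA, a binding motif of LEF1, the Wnt pathway factor of hair follicles (searched on both strands). Those letters are in capitals, as is TATAAA, a form of the TATA box (searched on the gene's own strand). Krt31 is at chr11:100050552-100050801, Krt32 at chr11:100088270-100088519, Krt33b at chr11:100029869-100030118 and Krt34 at chr11:100041555-100041804, all on the minus strand and written 5′ to 3′ along the gene.
Krt31: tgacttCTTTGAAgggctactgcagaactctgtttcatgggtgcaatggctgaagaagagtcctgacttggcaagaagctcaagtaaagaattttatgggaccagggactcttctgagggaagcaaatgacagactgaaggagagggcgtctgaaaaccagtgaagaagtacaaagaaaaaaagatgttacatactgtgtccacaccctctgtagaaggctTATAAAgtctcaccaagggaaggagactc
Krt32: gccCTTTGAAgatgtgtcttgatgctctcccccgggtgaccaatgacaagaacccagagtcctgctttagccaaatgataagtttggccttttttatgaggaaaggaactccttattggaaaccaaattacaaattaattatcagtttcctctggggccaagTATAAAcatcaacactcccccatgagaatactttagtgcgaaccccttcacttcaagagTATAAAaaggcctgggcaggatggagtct
Krt33b: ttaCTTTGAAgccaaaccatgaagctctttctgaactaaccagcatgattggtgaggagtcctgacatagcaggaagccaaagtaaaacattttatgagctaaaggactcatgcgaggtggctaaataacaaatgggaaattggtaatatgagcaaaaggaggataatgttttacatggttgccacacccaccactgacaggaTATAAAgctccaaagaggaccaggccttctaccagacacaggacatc
Krt34: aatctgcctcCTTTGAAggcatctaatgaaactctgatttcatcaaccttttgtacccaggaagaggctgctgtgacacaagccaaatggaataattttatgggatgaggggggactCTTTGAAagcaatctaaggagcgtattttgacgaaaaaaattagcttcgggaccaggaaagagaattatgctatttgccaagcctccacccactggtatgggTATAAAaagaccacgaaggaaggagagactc

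CTTTGAA was found in the promoters of 4 of the 32 keratins, and 4.46% of all 32851 promoter entries of this length hold it. A keratin counted where any of its entries matched, whereas each percentage given here is over single entries. In Krt31, Krt32 and Krt33b the match began 244, 247 and 247 bases before the start, and Krt34 held it at 240 and again at 133. These 4 genes lie next to each other on chromosome 11 and resemble each other in sequence, so their matches cannot be counted as independent. None of the 7 inner root sheath promoters held it. TATAAA was found in 14 of the 32 keratin promoters, against 7.59% of all promoters, including 4 of 7 shaft keratins and 6 of 7 inner root sheath keratins. The other motifs searched were TGANTCA of AP-1, in 1 keratin promoter (Krt13) and 6.75% of all promoters, GCCNNNGGC of AP-2, in 3 keratin promoters and 13.7% of all, and CCAAT, in 14 keratin promoters and 33.8% of all, each on both strands.

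The promoters of Krt36 (chr11:100105627-100105876) and Krt84 (chr15:101532821-101533070), both on the minus strand, are shown for contrast because these genes had the largest ratios, and neither holds CTTTGAA or TATAAA in this window. The search took the exact letters TATAAA, so other forms of a TATA box, such as tatataa in Krt36, were not counted. Both promoters hold CCAAT, which is not marked. The motifs were chosen after the values had been seen, and a match is a description of letters only.
Krt36: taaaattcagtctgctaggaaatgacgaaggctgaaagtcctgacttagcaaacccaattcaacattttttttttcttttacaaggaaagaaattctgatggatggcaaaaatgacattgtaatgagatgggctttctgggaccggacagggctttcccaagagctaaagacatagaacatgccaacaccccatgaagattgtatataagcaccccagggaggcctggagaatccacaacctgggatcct
Krt84: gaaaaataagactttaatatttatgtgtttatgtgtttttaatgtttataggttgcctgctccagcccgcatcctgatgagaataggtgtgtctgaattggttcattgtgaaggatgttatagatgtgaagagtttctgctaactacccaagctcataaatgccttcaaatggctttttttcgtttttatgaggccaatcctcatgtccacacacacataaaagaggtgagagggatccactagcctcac

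The inner root sheath keratins had smaller ratios than most shaft keratins in mandible and maxilla, a difference that was not tested. All 7 were higher in FoxO6-/-, with log2 ratios of 0.01 to 0.43 and a median of 0.11. Krt25 had signals of 4386 in FoxO6-/- and 4062 in WT mandible and maxilla, and Krt27 had 2661 in FoxO6-/- and 2313 in WT. Krt28 (641 in FoxO6-/- and 639 in WT) and Krt73 (741 in FoxO6-/- and 735 in WT) were nearly level. Krt71, the main type II partner of these keratins, had 882 in FoxO6-/- and 762 in WT (0.21). Krt72 had 272 in FoxO6-/- and 252 in WT, and Krt26 had 299 in FoxO6-/- and 221 in WT (0.43), the largest ratio of the inner root sheath. Krt75, of the companion layer between the sheaths, had 356 in FoxO6-/- and 331 in WT (0.10). Krt79, made in the upper follicle where the hair canal opens, had 1548 in FoxO6-/- and 1031 in WT mandible and maxilla (0.59) and 628 in FoxO6-/- and 544 in WT brain (0.21).

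In brain these groups could not be set in order, since Krt81 (0.95) was the only shaft keratin to reach the floor. Of the inner root sheath keratins 5 did, and all 5 were higher in FoxO6-/- with a median log2 ratio of 1.11. Krt27 had 191 in FoxO6-/- and 78.9 in WT brain (1.27), Krt28 had 238 in FoxO6-/- and 105 in WT brain (1.17), and Krt25 had 562 in FoxO6-/- and 261 in WT brain (1.11). For Krt73 the values were 170 in FoxO6-/- and 108 in WT brain (0.65), and for Krt71 they were 132 in FoxO6-/- and 112 in WT brain (0.23). Except for Krt25, these WT brain signals lay near the floor, between 78.9 and 112.

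All 6 oral keratins were above the floor in mandible and maxilla, each with a higher signal in FoxO6-/-, and the median log2 ratio was 0.59, or 0.32 after quantile normalization, which makes all 4 arrays share one distribution. Krt4, the type II keratin of the non-keratinized mouth lining, had 27221 in FoxO6-/- and 17328 in WT mandible and maxilla (0.65), where a second probe set gave 0.73 and quantile normalization 0.28. Its type I partner Krt13 had 10073 in FoxO6-/- and 7022 in WT (0.52), with 0.39 and 0.34 from its other probe sets. Krt76, of the hard palate and gingiva, had 1043 in FoxO6-/- and 637 in WT (0.71). The genes Krt6a, Krt6b and Krt16 are made in tongue, palate and follicle and in wounded epidermis. Krt16 had 655 in FoxO6-/- and 382 in WT (0.78), the largest ratio among the oral keratins. Krt6a had 10084 in FoxO6-/- and 7988 in WT (0.34), and its other probe sets gave 0.43 and 0.47. Krt6b, which is close to Krt6a in sequence, had 2360 in FoxO6-/- and 2141 in WT (0.14).

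In brain 3 oral keratins reached the floor and all 3 were more than 2-fold higher in FoxO6-/-. Krt6a had 507 in FoxO6-/- and 193 in WT brain (1.39), Krt13 had 383 in FoxO6-/- and 159 in WT brain (1.27), and Krt4 had 1114 in FoxO6-/- and 515 in WT brain (1.11). The lowest of the 4 signals of each of these genes was thus on the WT brain array. Krt6b, Krt16 and Krt76 were below the floor in brain.

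**Figure D2:**
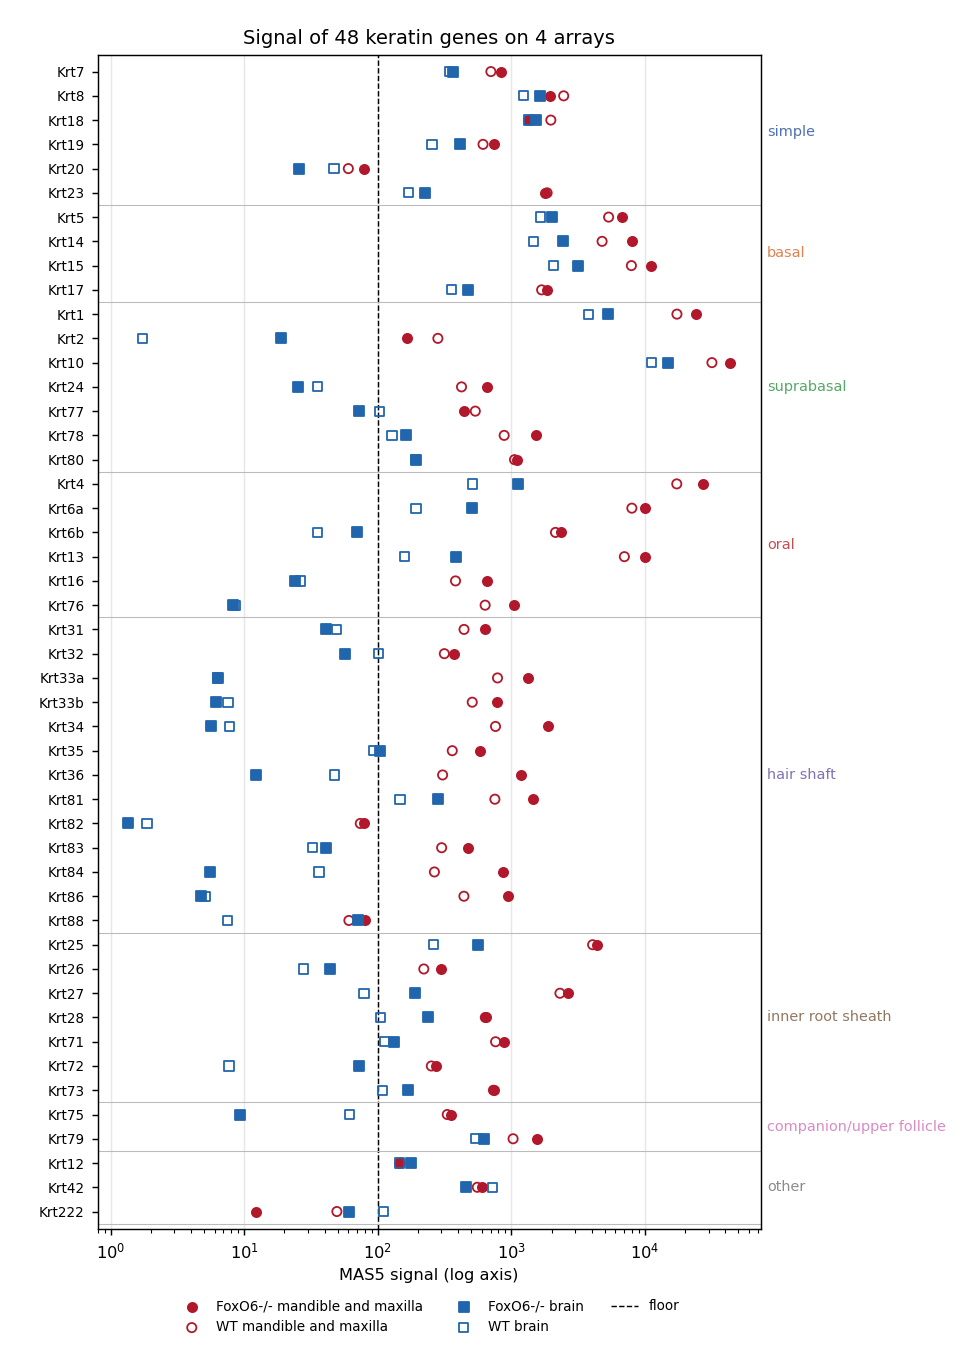
MAS5 signal (log axis) of each of the 48 keratins for both genotypes in mandible and maxilla and in brain, 1 point per array, with the floor of 101 as a dashed line. The 6 oral keratins lie lower on both brain arrays than on either mandible and maxilla array. The signals of the tissues overlap for Krt18, Krt12 and Krt42 and, below the floor, for Krt88.

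All 4 basal keratins were higher in FoxO6-/- in both tissues by their brightest probe sets, with a median log2 ratio of 0.41 in mandible and maxilla and 0.51 in brain. Krt5, the basal type II keratin, had 6775 in FoxO6-/- and 5352 in WT mandible and maxilla (0.34) and 2026 in FoxO6-/- and 1645 in WT brain (0.30). Krt14, its type I partner, had 7988 in FoxO6-/- and 4782 in WT mandible and maxilla, and its second probe set gave a log2 ratio of 0.37, against 0.74 from the first. The pair of probe sets differed likewise in brain, at 0.73 and 0.25. Krt15, a type I keratin of basal cells and follicle stem cells, had 11120 in FoxO6-/- and 7926 in WT mandible and maxilla (0.49) and 3179 in FoxO6-/- and 2074 in WT brain (0.62). Krt17, of follicle outer root sheath and other skin appendages, had 1843 in FoxO6-/- and 1687 in WT mandible and maxilla (0.13) and 474 in FoxO6-/- and 359 in WT brain (0.40); as the mean of all its probe sets its mandible and maxilla ratio was -0.27.

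Of the 7 suprabasal keratins, 5 were higher and 2 lower in FoxO6-/- mandible and maxilla, with a median log2 ratio of 0.46. This median was 0.10 after quantile normalization and 0.27 with gene-specific probe sets only. Krt1 had 24158 in FoxO6-/- and 17379 in WT (0.48), and its partner Krt10 had 43654 in FoxO6-/- and 31763 in WT (0.46). After quantile normalization the ratios were 0.16 for Krt1 and 0.02 for Krt10. Krt78 (1521 in FoxO6-/- and 884 in WT, 0.78) and Krt24 (663 in FoxO6-/- and 424 in WT, 0.65) had the largest ratios of the group. Krt80 was level, with 1103 in FoxO6-/- and 1057 in WT (0.06). The lower members were Krt2, of the late epidermis, with 165 in FoxO6-/- and 282 in WT (-0.77), and Krt77, with 440 in FoxO6-/- and 537 in WT (-0.29). The ratio of Krt2 was the lowest of any keratin. In brain, Krt1 had 5259 in FoxO6-/- and 3802 in WT (0.47), Krt10 had 14898 in FoxO6-/- and 11231 in WT (0.41), and Krt78 had 162 in FoxO6-/- and 128 in WT (0.34). For Krt80 the brain signals were 192 in FoxO6-/- and 193 in WT.

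The simple keratins did not share a direction in mandible and maxilla: 2 were higher and 3 lower in FoxO6-/-, with a median log2 ratio of -0.05. Krt8 and Krt18, the pair of single-layered epithelia, were both lower there, Krt8 with 1943 in FoxO6-/- and 2467 in WT (-0.34) and Krt18 with 1336 in FoxO6-/- and 1977 in WT (-0.57). In brain both were higher, Krt8 with 1640 in FoxO6-/- and 1236 in WT (0.41) and Krt18 with 1535 in FoxO6-/- and 1342 in WT (0.19). Krt7, of ducts and glands, had 842 in FoxO6-/- and 703 in WT mandible and maxilla (0.26) and 363 in FoxO6-/- and 342 in WT brain (0.08). Krt19, a small keratin that lacks the tail of the others, had 746 in FoxO6-/- and 614 in WT mandible and maxilla (0.28) and 414 in FoxO6-/- and 255 in WT brain (0.70). Krt23 had 1793 in FoxO6-/- and 1854 in WT mandible and maxilla (-0.05) and 224 in FoxO6-/- and 169 in WT brain (0.41). All 5 simple keratins above the floor were higher in FoxO6-/- brain. The direction of the simple group in mandible and maxilla depends on scaling, since its median was 0.08 with median-centred arrays.

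Krt12, the keratin of the corneal epithelium, had 145 in FoxO6-/- and 147 in WT mandible and maxilla and 176 in FoxO6-/- and 146 in WT brain. Krt42, a type I keratin that is a pseudogene in humans, had 608 in FoxO6-/- and 556 in WT mandible and maxilla (0.13) and 459 in FoxO6-/- and 719 in WT brain (-0.65). Its brain ratio was the lowest of any keratin above the floor in that tissue.

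**Figure D3:**
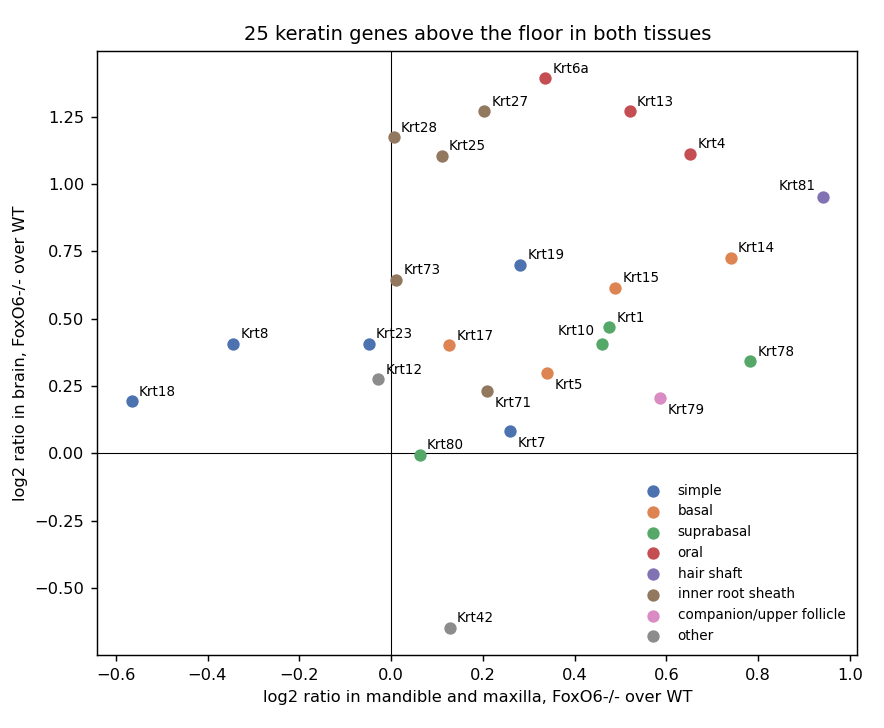
Log2 ratio of FoxO6-/- over WT signal in mandible and maxilla (horizontal axis) against the same ratio in brain (vertical axis) for the 25 keratins above the floor in both tissues, 1 point per gene, coloured by group. 19 genes lie above 0 on both axes, 6 have opposite signs, and none is lower in FoxO6-/- in both tissues.

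In brain 25 keratins reached the floor, of which 23 were higher and 2 (Krt42 and Krt80) lower in FoxO6-/-, with a median log2 ratio of 0.41, against 0.05 over all 12327 genes above the floor. Of all genes, 57.3% were higher in FoxO6-/- brain, or 73.8% with the arrays centred on their medians. At least 2-fold higher were 6 keratins, Krt4, Krt6a, Krt13, Krt25, Krt27 and Krt28, beside 1.13% of all genes, and 0 were at least 2-fold lower, beside 2.03% of all genes. Set side by side, 19 of the 25 keratins were higher in FoxO6-/- in both tissues and 6 had opposite signs. Of all 11494 genes above the floor in both tissues, 28.8% were higher in both, 23.9% lower in both and 47.3% of opposite sign. The 4 keratins past 2-fold in mandible and maxilla were all below the floor in brain, and the 6 past 2-fold in brain had mandible and maxilla ratios of 0.01 to 0.65. An overlap was rare over all genes as well, with 5 genes at least 2-fold higher in both tissues, which is 6.94% of the 72 in mandible and maxilla and 3.6% of the 139 in brain.

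The difference between the tissues was tested with limma over all 4 arrays, with tissue and genotype as terms, so that the genotypes stood in for replicates and 1 residual degree of freedom was left. The test covered 44 keratins among 12569 genes, and 35 were called higher in mandible and maxilla than in brain at an adjusted p of 0.05 and 0 lower, where 6.48% of all genes were called higher and 8.73% lower. For 19 of the 44 the mean brain signal was below the floor, so these entered the test only through mandible and maxilla. No difference is given for them other than a lower bound against the floor, where the brain signal lay below it. Of the 25 keratins above the floor in brain, 21 were called higher, beside 4.79% of the 12111 tested genes above the floor in brain, with a median log2 difference of 2.10, against 0.03 over those genes. These calls depend on the floor, since 0 keratins and 0 of 18193 genes were called when all genes entered the fit. At an unadjusted p under 0.05, 38 keratins were then higher and 1 lower, beside 10.1% of all genes higher and 10.9% lower.

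The 3 oral keratins above the floor in brain were all called. Krt4 differed by 4.84 ± 0.19 on the log2 scale (SE; limma adjusted p = 0.00857), Krt6a by 4.84 and Krt13 by 5.09. The other oral keratins were given bounds: against the floor of 101, Krt6b was at least 23.4-fold higher in FoxO6-/- and 21.3-fold higher in WT mandible and maxilla. For Krt76 the bound was 10.4-fold in FoxO6-/- and 6.32-fold in WT, and its brain signals were 8.21 in FoxO6-/- and 8.60 in WT. Of the shaft keratins Krt81, the one above the floor in brain, was called with a log2 difference of 2.35. The mandible and maxilla signals of the other 10 were 3.67 to 18.7 times the floor in FoxO6-/- and 2.64 to 7.83 times in WT. These are lower bounds except for Krt35 in FoxO6-/- and Krt32 in WT. Their brain signals there, 103 for Krt35 and 102 for Krt32, were just above the floor. Krt34, with brain signals of 5.62 in FoxO6-/- and 7.74 in WT, was at least 18.7-fold higher in FoxO6-/- and 7.56-fold higher in WT mandible and maxilla. All 5 inner root sheath keratins above the floor in brain were called, with differences between 2.01 for Krt28 and 4.34 for Krt27. Krt79 of the upper follicle was called with a difference of 1.11.

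All 4 basal keratins were called, with log2 differences of 1.70 to 2.10, and Krt14 differed by 1.70 ± 0.15 (SE; limma adjusted p = 0.0148). The 4 suprabasal keratins above the floor in brain were called as well, Krt10 with a difference of 1.53 ± 0.15 (SE; limma adjusted p = 0.0181), Krt1 with 2.20, Krt80 with 2.49 and Krt78 with 3.01. The simple keratins were split, with Krt7 (1.13), Krt19 (1.06) and Krt23 (3.23) called higher in mandible and maxilla. Krt8 (log2 difference 0.62, adjusted p = 0.198) and Krt18 (0.18, adjusted p = 0.662) did not pass, nor did Krt12 (-0.13, adjusted p = 0.626) or Krt42 (0.02, adjusted p = 0.969). A p that misses the threshold with 1 residual degree of freedom does not show that these levels were equal.

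The genotype coefficient of the same fit, in which the tissues stood in for replicates, gave no call for any of the 44 keratins or of the 12569 genes (smallest limma adjusted p = 0.902). At an unadjusted p under 0.05, 7 keratins were higher in FoxO6-/- and 0 lower, beside 2.26% of all genes higher and 2.42% lower. They were Krt81, with a mean log2 ratio over both tissues of 0.95, Krt13 (0.90), Krt4 (0.88), Krt14 (0.73), Krt15 (0.55) and Krt1 (0.47), and Krt26, which was below the floor in brain and is given no ratio there. The probe sets that stood for Krt14 and Krt4 are not counted as gene-specific. Gene-specific ones gave log2 ratios of 0.37 in mandible and maxilla and 0.25 in brain for Krt14. For Krt4 they gave 0.73 in mandible and maxilla and 0.91 in brain. The count was 14 with median-centred arrays, 6 with gene-specific probe sets only, 3 without a floor and 0 with tissue left out of the fit. For the 4 keratins past 2-fold in mandible and maxilla this coefficient rests in part on brain signals below the floor and is not informative.

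Mouse keratins sit in a pair of dense clusters, the type I genes on chromosome 11 and the type II genes, with the type I gene Krt18, on chromosome 15. The inner root sheath keratins Krt25 to Krt28 and Krt71 to Krt73 are neighbours. So are the shaft keratins of each type, from Krt33a to Krt36 on chromosome 11 and from Krt88 to Krt82 on chromosome 15. The largest mandible and maxilla ratios of both clusters fell in these shaft runs. Type I keratins had a median log2 ratio of 0.46 (23 genes) and type II keratins of 0.34 (21 genes) in mandible and maxilla. In brain the medians were 0.62 (13 type I genes) and 0.37 (12 type II genes).

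**Figure D4:**
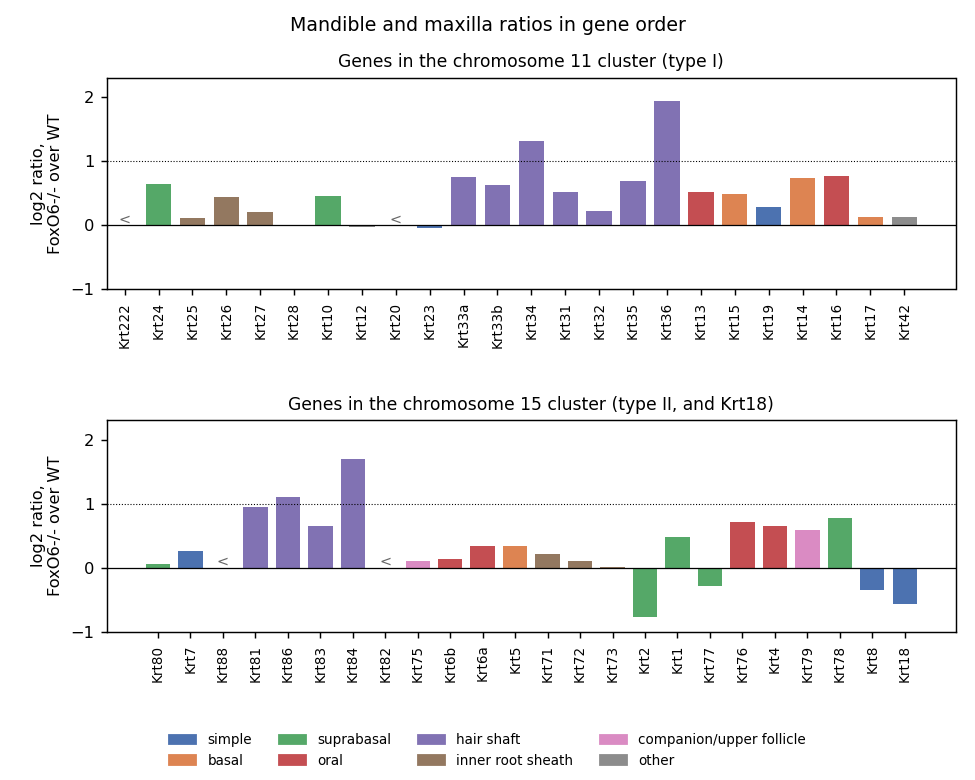
Bars give the log2 ratio of FoxO6-/- over WT signal in mandible and maxilla (vertical axis) of each keratin, in gene order along chromosome 11 and along chromosome 15 (horizontal axis, order only and not to scale), coloured by group; < marks a keratin below the floor and the dotted line 2-fold. The shaft keratin runs hold the tallest bars, Krt36 at 1.95 and Krt84 at 1.70, and the inner root sheath runs stay between 0.01 and 0.43.

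The keratin-associated proteins, which embed the shaft keratins, were examined as a companion list chosen after values had been seen. Of 32 above the floor in mandible and maxilla, 29 were higher in FoxO6-/-, and the median log2 ratio was 0.55, as was that of the 20 hair keratins. Krtap13 had the largest ratio of the list, with 1636 in FoxO6-/- and 346 in WT mandible and maxilla (2.24), followed by Krtap13-1 with 2213 in FoxO6-/- and 768 in WT (1.53). The lowest were Krtap7-1, with 371 in FoxO6-/- and 596 in WT (-0.68), and Krtap4-2 (-0.38). A companion list of shaft regulators, which also held the desmosomal cadherin Dsc1, did not share this direction. Of its 7 genes above the floor 4 were higher, with a median of 0.05. Foxn1, the factor missing in nude mice, had a ratio of -0.29, Lef1 of 0.22 and Dsc1 of 0.55. Lhx2, of follicle stem cells, had -1.34. It was also above the floor in brain, with 1371 in FoxO6-/- and 991 in WT, and the source of its signal was not tested.

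The cornified envelope, the protein shell that surrounds keratin bundles in the outer cells of skin, had a similar direction. All 18 of its genes above the floor were higher in FoxO6-/- mandible and maxilla, with a median of 0.50, and all 11 above the floor in brain were higher there (0.57). Sprr3, an envelope precursor of the mouth and oesophagus, had a ratio of 0.78 and Lypd3 of 0.69, while the crosslinking enzyme Tgm1 (0.17) and filaggrin, Flg (0.21), had the smallest. The summed envelope signal was 160300 in FoxO6-/- and 113814 in WT mandible and maxilla, and 17318 in FoxO6-/- and 12564 in WT brain. Desmosomes and hemidesmosomes anchor keratin filaments to the cell membrane. Their companion list, which also held Cdh1 and Epcam, of neither structure, had a median of 0.19 with 12 of 18 higher. Jup (0.89) and Ppl (0.62) were at the top of this list and Epcam (-0.24) and Itgb4 (-0.22) at the bottom. Epithelial transcription regulators had a median of 0.07 with 9 of 14 higher, from Elf3 (-0.36) and Ehf (-0.08) to Tfap2c (0.40) and Ovol1 (0.73). Intermediate filaments other than keratins were lower on balance, with 3 of 10 higher and a median of -0.19. Among these, the neuronal Ina (-1.11) and the muscle protein Synm (-0.96) were lowest, and the lamins Lmna (0.26) and Lmnb1 (0.33) highest.

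**Figure D5:**
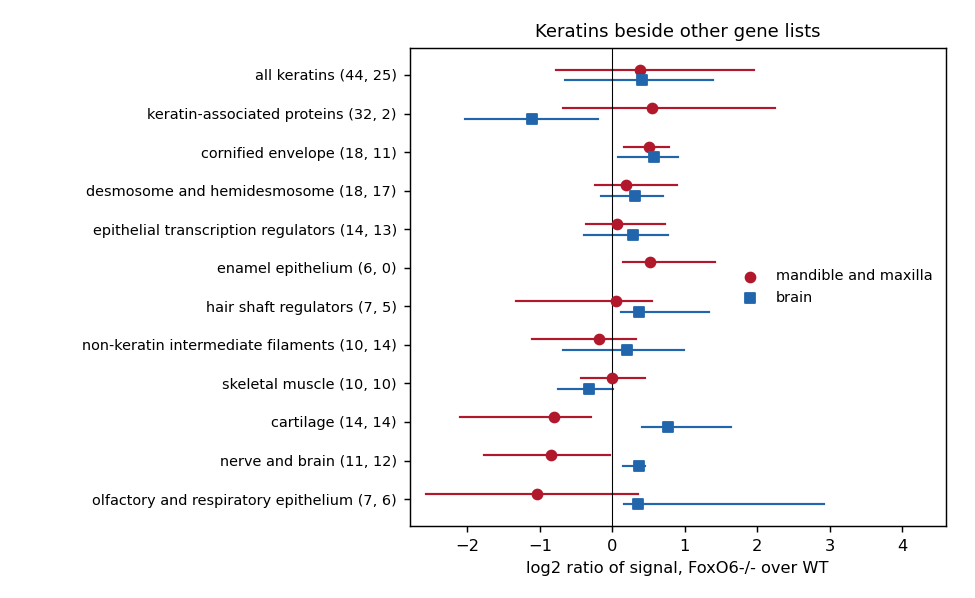
Median log2 ratio of FoxO6-/- over WT signal (horizontal axis) for keratins and companion lists in mandible and maxilla and in brain, with a line over the full range of the members of each list above the floor and their numbers in brackets, mandible and maxilla first. In mandible and maxilla the keratin, keratin-associated protein and cornified envelope medians are above 0, and those of cartilage, nerve and olfactory markers are below it.

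Markers of other tissues that a mandible and maxilla dissection can hold are given beside these values. In mandible and maxilla, 0 of 14 cartilage markers were higher in FoxO6-/- (median -0.80), as were 0 of 11 nerve markers (-0.85) and 2 of 7 olfactory and respiratory markers (-1.04), whereas all 6 enamel epithelium markers were higher (0.52). Skeletal muscle had a median of -0.01 over 10 genes and salivary markers of -0.16 over 3. Blood markers had a median of -0.29 over 2 genes, and choroid plexus and meninges markers of -0.91 over 4. In brain the cartilage markers ran the other way, with all 14 higher in FoxO6-/- (0.76), as were all 12 nerve markers (0.37) and all 6 olfactory and respiratory markers (0.36). No marker had a signal of 0 on any array. All these lists came from single arrays, and their part in the keratin ratios was not tested.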

How the data were processed

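RNA of FoxO6-/- and WT mouse mandible and maxilla and brain was hybridised to Affymetrix mouse expression arrays, 1 array per group, 4 arrays in all. The authors computed MAS5 signals, deposited as linear intensity values of 45101 probe sets per array; no source used here names the MAS5 version. The trimmed mean, leaving out 2% of values at each end, was 500.0 on every array, and the median signal lay between 91.9 and 110. The number of arrays limits the precision. The study's methods name limma. Gene names came from the platform annotation: 34945 probe sets named 1 gene, 932 several and 9160 none. Symbols of all 48 keratins were matched by Entrez ID. The 1 probe set naming Krt14 and Krt17 together was left out.

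Genes were filtered at a floor of 101, the median of all signals, and genotype ratios were taken within each tissue without a test; 2-fold described size. Differences across the 4 arrays were fitted on log2 signals of 12569 genes with limma 3.58.1 in R 4.3.3, with Benjamini-Hochberg adjustment and a limit of 0.05, and the script was tested on simulated data. Each sample is 1 array, so these p-values rest on the spread left after tissue and genotype and on no replicates. The empirical Bayes step of limma drew the variance of each gene toward a value estimated over all tested genes. The SE and p of a gene therefore do not measure its own spread alone. The SE of the tissue difference was nearly the same for Krt14 (0.146), Krt1 (0.146) and Krt81 (0.146). Tables were made with pandas 2.3.3 in Python 3.11.15. All keratins above the floor in either tissue were to be named, and of each companion list the 2 highest and the 2 lowest genes in mandible and maxilla. For the markers of other tissues no single genes are named. The members and lists were chosen with earlier results of these data known. Alternatives were quantile normalization, median centring, other floors, raising low values to the floor, averaging the probe sets of a gene, gene-specific probe sets only, a variance trend, leaving out the other term and leaving out each array. Promoters were RefSeq sequences of GRCm38.p6.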

Additional observations from a re-analysis of the deposited data

Results flagged for a closer look

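Of the 25 keratins above the floor in both tissues, 6 had FoxO6-/- over WT ratios of opposite sign in mandible and maxilla and in brain, as did 47.3% of all 11494 genes above the floor in both. Each sign rests on 1 array per group, and the difference was not tested. The difference of the log2 ratios, mandible and maxilla minus brain, was -0.76 for Krt18 and -0.75 for Krt8, the filament pair of single-layered epithelia, both lower in FoxO6-/- mandible and maxilla and higher in FoxO6-/- brain. It was -0.46 for Krt23 and -0.30 for Krt12, which also were lower in FoxO6-/- mandible and maxilla and higher in FoxO6-/- brain. Krt42 ran the other way with a difference of 0.78, as did Krt80 with 0.0672, whose signals hardly differed between genotypes in either tissue. The signs of Krt12, Krt23 and Krt80 changed with the scaling: median centring gave positive ratios in mandible and maxilla for Krt12 (0.10) and Krt23 (0.08) and in brain for Krt80 (0.14).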

How the results depend on the processing

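Across the alternatives for mandible and maxilla the median log2 ratio of the keratins was 0.30 to 0.52 and 3 to 5 were at least 2-fold higher in FoxO6-/-; in brain the median was 0.29 to 0.55. With median-centred arrays the median log2 ratio of all genes was 0.125 in mandible and maxilla and 0.197 in brain, and 66.0% of all genes and 90.9% of keratins were higher in FoxO6-/- mandible and maxilla, against 48.7% and 86.4% as deposited. Without a floor, 1 keratin was at least 2-fold lower in FoxO6-/- mandible and maxilla and 3 in brain, against 0 in each. With a floor at the 75th percentile (524) 1 keratin, against 6, was at least 2-fold higher in FoxO6-/- brain, since fewer genes entered. Between mandible and maxilla and brain, 0 keratins were called higher without a floor and 20 with a floor at the 75th percentile, against 35. The median log2 difference was 2.35 with that floor and 2.25 with low values raised to the floor, against 2.95. That 2.95 rests in part on the 19 keratins below the floor in brain and is not a measured difference. Over the 25 keratins above the floor in brain the median was 2.10. Leaving out each array in turn gave 30 to 35 calls, where a lone array is assumed to vary like the other tissue. No genotype call was made in any alternative; the number of keratins at an unadjusted p under 0.05 was 0 to 14. Quantile normalization lowered the mandible and maxilla medians of the suprabasal (0.10, against 0.46) and oral keratins (0.32, against 0.59). Among ratios close to 0, signs changed in mandible and maxilla for Krt12 (0.12 after quantile normalization and 0.10 after median centring, against -0.03), Krt23 (0.08 after median centring, against -0.05), Krt17 (-0.27 as the mean of its probe sets, against 0.13) and the simple group (0.08 after median centring and 0.11 without a floor, against -0.05), and in brain for Krt80 (0.06 and 0.14, against -0.01). Krt10, Krt14 and Krt42 moved by more than the spread between probe sets under at least 1 alternative. So did the brain median of the hair keratins, which was 0.18 without a floor and 0.21 with a floor at the 75th percentile, against 0.95. No paired analysis was possible because each group has 1 array and no second replicate number; the tissue fit compared the tissues within each genotype. Values near the floor also limit the brain ratios.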
